A study of Mus musculus with 9 samples.

Results

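The genes described here serve the uptake and intracellular binding of fatty acids. They are the fatty acid binding proteins Fabp1, Fabp2, Fabp4, Fabp5 and Fabp7, the uptake proteins Cd36 and Slc27a2, the lipase Lpl, the lipoprotein receptor Vldlr and the acyltransferase Mogat1. They were chosen by gene symbol, which gave 10 of the 55401 genes of the count table. All 10 passed the filter on low counts, as did 15717 genes in all. Mogat1 held 9, 13 and 9 counts in the healthy livers and passed that filter through its counts in the tumor livers.

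RNA was sequenced from 9 whole-liver samples of female wild-type mice, 3 in each of 3 groups. Untreated HCC (hepatocellular carcinoma) arose after hydrodynamic tail vein injection of sleeping beauty transposon plasmids at 6 weeks of age. These carry myristoylated AKT under the EF1α promoter and Nras-v12 under the Caggs promoter, with the transposase on pCMV-SB11. The growth protocol shared by all samples also lists a plasmid for N90-β-catenin, whereas the design text names RAS/AKT alone. The untreated mice received a blank AAV8, an adeno-associated virus that reaches hepatocytes, 1 week after the oncogenes. The miR-22-treated HCC mice received AAV8-miR-22 at the same time, and both sets of livers were taken 5 weeks after the oncogenes and 4 weeks after the virus. Healthy livers came from mice with neither plasmids nor virus, so oncogenes, injection and virus cannot be told apart in comparisons with them. The strain is FVB/N in the protocol and the methods and C57BL/6 in the strain field, and the virus dose also differs between the labels and the methods. The plasmids enter only part of the hepatocytes, and a library holds tumor and remaining liver together.

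Fatty acids reach hepatocytes from the blood, bound to albumin or carried as triglyceride in lipoproteins. Lipoprotein lipase releases them from triglyceride, CD36 and the FATP (SLC27) proteins help to take them up, and FATP enzymes also join them to coenzyme A. Inside the cell the fatty acid binding proteins (FABPs), small barrel-shaped carriers, hold them in solution and deliver them to mitochondria, to the nucleus or to the enzymes that build triglyceride. FABP1 is the main FABP of hepatocytes. CD36, FABP4, LPL and MOGAT1 are known in liver mainly from steatosis, where the nuclear receptor PPARγ can switch them on, whereas PPARα is known to drive Fabp1 and other genes of fatty acid use.

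Total counts per library lay between 18258660 and 20964551 for healthy livers, between 18293676 and 23908392 for untreated HCC, and between 16664659 and 20459853 for the treated group. Normalized counts below are TMM-normalized to a common library size, and a gene was called where edgeR's quasi-likelihood test gave an adjusted p (Benjamini-Hochberg) below 0.05 together with a change beyond 1.5-fold. Akt1, to which reads of the AKT transgene may be counted, had 2002 to 2105 normalized counts in healthy livers. It had 22700.4 to 32454 in the untreated and 13027 to 21424 in the treated tumor livers. Mir22hg, the host transcript of miR-22, had 1096 to 1375, 257 to 399 and 542 to 634. The virus carries miR-22, whose mature form was not measured in these libraries, so Mir22hg checks no label. In bulk liver, fewer cells of a type and less RNA per cell cannot be told apart. The labels do not tie libraries to single mice by name, and p-values measure the spread between the 3 samples of a group, which may be partly technical.

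The promoter table of RefSeq (GRCm39) held 7 of the 10 members; Fabp4, Fabp5 and Lpl had no entry. The 250 bases before the transcription start of the RefSeq entry are shown for a pair of members that fell in untreated HCC (Fabp1, Slc27a2) and a pair that rose (Cd36, Mogat1), 5′ to 3′ on the strand of the gene. By the GENCODE gene coordinates given further below, the stretches of Slc27a2 and Cd36 lie wholly inside the gene. Those of Fabp1 and Mogat1 reach into it at their 3′ end. Capitals mark the core hexamer AGGTCA of nuclear receptors, read here from the other strand as TGACCT, and in Fabp1 also the direct repeat described after the sequences.
Fabp1 (chr6:71176613-71176862, + strand): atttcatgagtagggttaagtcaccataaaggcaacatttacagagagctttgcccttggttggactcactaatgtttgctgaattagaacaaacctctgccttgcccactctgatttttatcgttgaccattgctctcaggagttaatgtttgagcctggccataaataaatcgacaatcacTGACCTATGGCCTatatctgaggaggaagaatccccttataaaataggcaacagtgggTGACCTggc
Slc27a2 (chr2:126394694-126394943, + strand): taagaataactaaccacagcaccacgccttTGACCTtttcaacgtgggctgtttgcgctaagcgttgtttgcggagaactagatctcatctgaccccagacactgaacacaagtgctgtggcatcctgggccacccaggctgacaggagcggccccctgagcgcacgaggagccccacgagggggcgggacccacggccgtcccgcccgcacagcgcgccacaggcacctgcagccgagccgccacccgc
Cd36 (chr5:18040895-18041144, − strand): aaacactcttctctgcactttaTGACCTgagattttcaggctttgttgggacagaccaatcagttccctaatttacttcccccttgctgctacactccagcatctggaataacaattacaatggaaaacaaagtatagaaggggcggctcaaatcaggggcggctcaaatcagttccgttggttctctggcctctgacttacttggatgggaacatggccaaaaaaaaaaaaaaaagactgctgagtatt
Mogat1 (chr1:78487447-78487696, + strand): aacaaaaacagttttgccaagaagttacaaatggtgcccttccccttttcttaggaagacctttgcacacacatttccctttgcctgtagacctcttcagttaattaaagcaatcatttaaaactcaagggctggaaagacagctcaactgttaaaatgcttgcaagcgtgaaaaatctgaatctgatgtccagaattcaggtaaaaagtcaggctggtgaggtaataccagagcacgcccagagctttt

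The hexamer was searched on both strands of the whole table window, 250 bases before to 50 after the start. It occurred in 4 of the 7 member genes with an entry (Fabp1, Slc27a2, Cd36 and Fabp7), and in 16.3% of all 32851 promoters. Fabp1 held it from −67 to −62 and from −9 to −4, Slc27a2 from −220 to −215, Cd36 from −228 to −223 and Fabp7 from −171 to −166. Promoters of Fabp2, Mogat1 and Vldlr, which has 2 entries, did not hold it. The direct repeat of AGGNCA and AGGNCA with 1 base between them, the kind of element that PPAR:RXR dimers bind, was found in 1 member, Fabp1, as TGACCTATGGCCT from −67 to −55, which overlaps its first hexamer. It was found in 0.381% of all promoters. The letters TATAAA on the gene's strand also occurred in 1 member, again Fabp1, from −30 to −25, against 8.32% of all promoters. These are matches of letters in the reference and no binding was measured.

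miR-22-3p is shown because the virus carries it, with its seed (bases 2 to 8) in capitals, and its gene copy lies at chr11:75354598-75354619 (GRCm39, + strand). A 3′ UTR that holds GGCAGCT can pair with this seed. Of the 10 members, 2 held it in the 3′ UTR of the canonical GENCODE transcript, against 14.1% of 20828 protein-coding genes. These were Cd36, at bases 1374 to 1380 of a 3′ UTR of 1660 bases, and Vldlr, at bases 3657 to 3663 of 5091, and each is shown over 30 bases with the match in capitals.
miR-22-3p: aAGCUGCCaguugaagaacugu
Cd36 site (chr5:17986957-17986986, − strand): tcaaaactgcatGGCAGCTttgggcaggag
Vldlr site (chr19:27230185-27230214, + strand): caaagtcagatgGGCAGCTgggtgtgtgtt

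Between untreated HCC and healthy livers, 5 of the 10 members were called higher (Fabp4, Fabp5, Cd36, Lpl and Mogat1), 2 lower (Fabp1 and Slc27a2) and 3 were not called. Over all tested genes, 22.7% were called higher and 18.1% lower in this comparison, 40.8% in all. With miR-22, 2 members were called higher than in untreated HCC (Fabp1 and Slc27a2), 1 lower (Lpl) and 7 were not called, against 8.32% of tested genes higher, 5.47% lower and 13.8% in all. Between miR-22-treated HCC and healthy livers, 6 members were higher (the 5 of untreated HCC and Fabp2) and 2 lower (Fabp1 and Slc27a2), against 16.9% and 7.05% of tested genes and 24% in all. The median log2 fold change of the members was 1.14, −0.08 and 1.25 in the 3 comparisons, and that of all tested genes 0.01, 0.002 and 0.02. Libraries of the groups did not overlap for 7, 6 and 8 of the members, against 65.3%, 39.3% and 48.8% of tested genes. The 3 comparisons share groups, so their values stand side by side and none is a check of another.

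**Figure D1:**
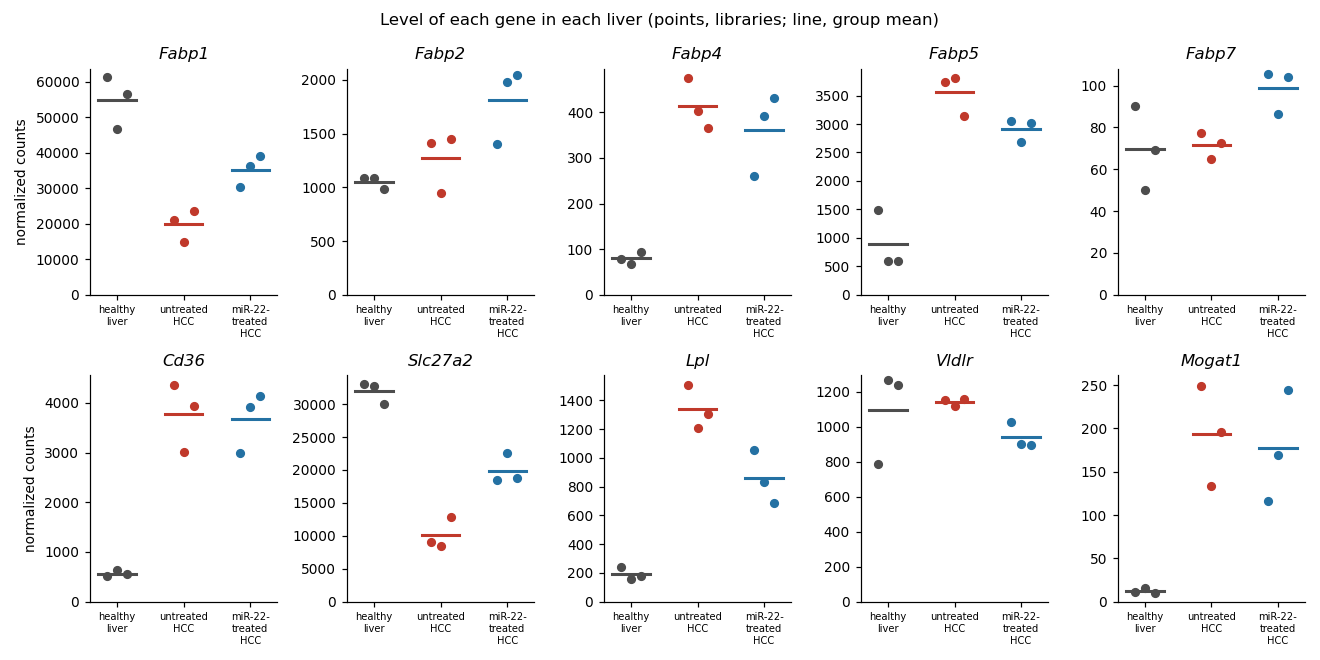
Normalized counts of the 10 genes in each of the 9 livers; points are libraries and the line is the group mean, on a linear axis from 0 in each panel. Fabp1 and Slc27a2 are lowest in untreated HCC and miR-22-treated livers lie between the other groups, Cd36, Fabp4, Fabp5 and Mogat1 are high in both tumor groups, and Lpl is highest in untreated HCC.

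**Figure D2:**
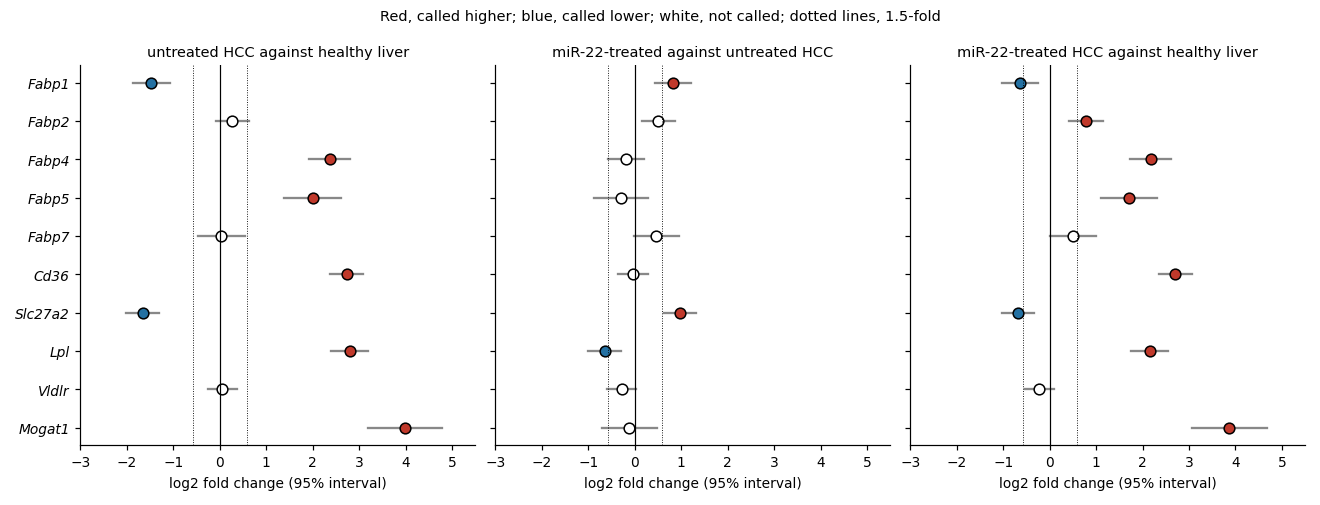
Log2 fold change of each member in the 3 comparisons, with its 95% interval from the edgeR fit (n = 3 livers per group); filled points were called. In the middle panel only Fabp1, Slc27a2 and Lpl are filled.

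Fabp1, the liver fatty acid binding protein, had 61362, 46615 and 56606 normalized counts in the 3 healthy livers. Its values were 21049, 14834 and 23538 in untreated HCC and 30282, 36190.5 and 39036 in miR-22-treated HCC. The 3 groups did not overlap, with every treated liver between the other groups. Fabp1 fell by 1.47 on the log2 scale in untreated HCC (SE 0.183, adjusted p = 2.08e-05), 2.77-fold lower than in healthy livers, and was 1.78-fold higher with miR-22 than without it (log2 0.83, SE 0.180, adjusted p = 0.00618). Tested against a change of 1.5-fold itself (edgeR's glmTreat), the difference with miR-22 was not called (adjusted p = 0.359). Treated livers lay 1.56-fold below healthy ones (log2 −0.64, adjusted p = 0.0144), a call that was lost with libraries scaled by their totals alone (−0.45), without healthy replicate 1 (−0.57) and without miR-22-treated replicate 2 (−0.56, adjusted p = 0.0538). The gene lies at chr6:71176809-71182016 (GRCm39, + strand) and has 4 exons.

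Fabp5, the epidermal FABP, also made by macrophages, moved the other way. It had 1492, 593 and 595 normalized counts in healthy livers, where replicate 1 stood far above the others. In untreated HCC it had 3739, 3814 and 3147, and in miR-22-treated HCC 3052, 2685 and 3026. No library of either tumor group reached down to the healthy livers, and the tumor groups did not overlap either. Fabp5 was 4.00-fold higher in untreated HCC than in healthy livers (log2 2.00, SE 0.282, adjusted p = 6.11e-05), or 2.57 on the log2 scale without healthy replicate 1. With miR-22 the difference from untreated HCC was −0.29 (95% interval −0.87 to 0.30, adjusted p = 0.485), which was not called. Fabp5 lies at chr3:10077602-10081674 (+ strand).

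Fabp4, the adipocyte FABP, lies near it at chr3:10268785-10273737 (− strand). It had 78.1, 67.2 and 93.8 normalized counts in healthy livers, 476, 404 and 365 in untreated HCC and 261, 392.2 and 431 in miR-22-treated HCC. All tumor livers lay above all healthy livers, and the tumor groups overlapped. Fabp4 was 5.18-fold higher in untreated HCC (log2 2.37, SE 0.203, adjusted p = 1.01e-06) and 4.52-fold higher in treated HCC (adjusted p = 6.81e-06) than in healthy livers. Treated and untreated HCC differed by −0.20 (95% interval −0.58 to 0.19, adjusted p = 0.472).

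Fabp4 is best known from fat cells. The 8 adipocyte markers summed to 544 to 746 normalized counts in the healthy group, 146 to 217 in the untreated and 316 to 376 in the treated tumor group, and 5 of the 8 averaged under 10 in every group. Adiponectin (Adipoq) averaged 4.68, 0.242 and 3.81 in the 3 groups. Leptin (Lep) averaged 0.355 and 0.290 and was at 0 in all treated livers. The 3 adipocyte markers that passed the filter (Lipe, Adrb3 and Slc2a4) fell in untreated HCC, and 2 of them, Adrb3 and Slc2a4, were higher with miR-22 than without. The part of fat cells in the Fabp4 level was not tested.

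Fabp2, the intestinal FABP, had 1090.35, 1083 and 984 normalized counts in healthy livers, 1415, 943 and 1453 in untreated HCC and 1401, 1978 and 2051 in treated HCC. Untreated HCC overlapped both other groups. The difference between untreated HCC and healthy livers was 0.27 (95% interval −0.09 to 0.64, adjusted p = 0.185), and 0.69, past the threshold, with library totals alone. With miR-22 it was 0.51 above untreated HCC (adjusted p = 0.0415), short of the fold threshold, and it passed that threshold without untreated replicate 4 (0.62) or miR-22-treated replicate 2 (0.66). Treated livers were 1.72-fold above healthy ones (log2 0.78, SE 0.168, adjusted p = 0.00304). Of the 8 enterocyte markers listed, Cdx1, Cdx2, Sis and Alpi were at 0 counts in all 9 libraries, whereas Vil1 (3.73, or 4.35 without healthy replicate 1) and Apoa4 (1.94) were higher in untreated HCC on the log2 scale. Mttp, the third that was tested, was at −0.48 (adjusted p = 0.00387), under the fold threshold. Apoa4 and Mttp already averaged 9515 and 9551 normalized counts in healthy livers, against 9.86 for Vil1. The part of enterocytes in the Fabp2 level was not tested. The gene lies at chr3:122688721-122693155 (+ strand).

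Fabp7, the brain FABP, was low throughout. It had 90.3, 50.1 and 69.3 normalized counts in healthy livers, 77.3, 65.2 and 72.5 in untreated HCC and 105, 86.6 and 104 in treated HCC. Untreated HCC lay within the range of the healthy livers, and treated HCC lay above untreated HCC. None of its 3 differences was called: 0.04 (95% interval −0.46 to 0.53), 0.47 (−0.02 to 0.95, adjusted p = 0.156) and 0.50 (0.003 to 0.998, adjusted p = 0.108). The last was called without healthy replicate 1 (0.71, adjusted p = 0.0418) and with library totals alone (0.69). Among the 6 neural and Schwann markers S100b was called higher in untreated HCC, with means of 0.762 normalized counts in healthy livers and 19.2 in untreated HCC, and the list summed to 160 to 212, 167 to 219 and 115 to 220 normalized counts. Sox10 was at 0 in all healthy and untreated livers. Fabp7 lies at chr10:57660956-57664554 (+ strand).

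Per length, Fabp1 outweighed the other FABPs in every liver. Counts per kilobase of the canonical transcript were summed over the 5 FABP members in each library, and each gene's share of this sum was taken. Fabp1 held 97.9% ± 0.387 (SD, n = 3) in healthy livers, 86.5% ± 2.88 in untreated HCC and 92.3% ± 0.466 in treated HCC. Fabp5 held 0.880% ± 0.408, 9.25% ± 2.74 and 4.41% ± 0.735. Fabp2 held 1.11% ± 0.187, 3.25% ± 0.154 and 2.76% ± 0.248, and Fabp4 0.0592% ± 0.00807, 0.777% ± 0.187 and 0.389% ± 0.0534. For these 4 genes the groups did not overlap in any of the 3 comparisons, at an exact two-sided permutation p of 0.1, the smallest that 3 against 3 livers can give. For Fabp7, with 0.0735% ± 0.0115, 0.191% ± 0.0275 and 0.157% ± 0.0303, the permutation p was 0.1 against healthy livers and 0.3 between the tumor groups. With 15 comparisons in this family, no adjusted p can pass 0.05. The 5 shares of a library are parts of the same sum, so each also depends on the level of Fabp1. With miR-22 the share of Fabp2 was lower than without it, whereas its level differed by 0.51 on the log2 scale. The share of Fabp4 was also lower, at a level difference of −0.20 that was not called. In untreated HCC the share of Fabp7 was above that of healthy livers at a level difference of 0.04. The sum itself was 99394 ± 13760.2 counts per kilobase in healthy livers, 40407 ± 7953 in untreated HCC and 67545 ± 8287 in treated HCC.

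**Figure D3:**
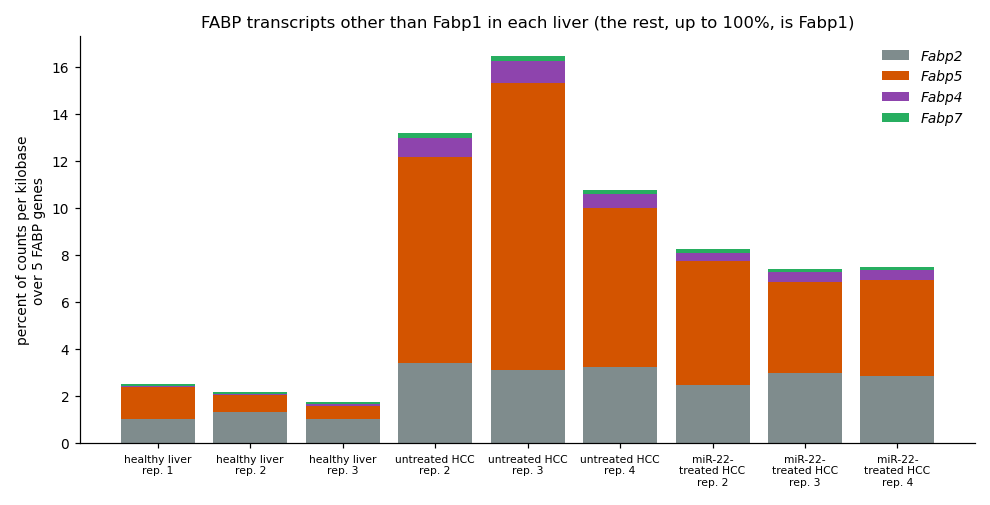
Share of Fabp2, Fabp5, Fabp4 and Fabp7 in the counts per kilobase summed over the 5 FABP members, in percent, as stacked bars from 0 for each liver; the remainder is Fabp1. The bars of the 3 untreated HCC livers are the tallest, those of the 3 healthy livers the shortest, and Fabp5 makes up most of the bar in all 6 tumor livers.

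The other FABP genes listed were hardly present. Fabp3, the FABP of heart and muscle, Fabp6, that of the ileum, Fabp9 and Fabp12 did not pass the filter on low counts.

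Cd36, the membrane protein that takes up long-chain fatty acids and oxidized lipoproteins, was among the members that rose in the tumors. It had 510, 634 and 554 normalized counts in healthy livers, 4358, 3014 and 3936 in untreated HCC and 2992, 3925 and 4134 in treated HCC. Every tumor liver lay far above every healthy one, and the tumor groups overlapped almost completely. Cd36 was 6.66-fold higher in untreated HCC (log2 2.73, SE 0.163, adjusted p = 6.45e-08) and 6.51-fold higher in treated HCC (log2 2.70, adjusted p = 2.01e-07) than in healthy livers. Between treated and untreated HCC the difference was −0.03 (95% interval −0.36 to 0.29, adjusted p = 0.899), an interval that lies within 1.5-fold in either direction. Its 3′ UTR holds the seed match shown above. The gene spans chr5:17986432-18094067 (− strand), so the promoter shown belongs to 1 of its starts.

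Slc27a2 (FATP2), the very long-chain acyl-CoA synthetase and fatty acid transporter of hepatocytes, fell. It had 33112, 32739 and 30038 normalized counts in healthy livers, 9116, 8399.69 and 12866 in untreated HCC and 18432, 22514 and 18775 in treated HCC. As for Fabp1, the 3 groups did not overlap and treated livers lay in the middle. Slc27a2 was 3.16-fold below healthy livers in untreated HCC (log2 −1.66, SE 0.162, adjusted p = 2.92e-06) and 1.97-fold higher with miR-22 than without it (log2 0.97, SE 0.160, adjusted p = 0.0013). Treated livers were 1.61-fold below healthy ones (log2 −0.68, SE 0.159, adjusted p = 0.00507). With glmTreat the difference with miR-22 was not called (adjusted p = 0.0855), and with library totals alone that between treated and healthy livers was not (−0.50). The gene lies at chr2:126394327-126430166 (+ strand).

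Among 8 tested genes of the other SLC27 transporters and long-chain acyl-CoA synthetases, 2 were higher, 2 lower and 4 not called in untreated HCC against healthy livers, with a median log2 fold change of 0.30. With library totals alone 5 were higher and 2 lower. The 2 that fell act in hepatocytes as Slc27a2 does: Slc27a5, the bile acid-CoA ligase and fatty acid transporter (−2.18, SE 0.210, adjusted p = 2.54e-06), and Acsl1, the main acyl-CoA synthetase of liver (−1.74, SE 0.150, adjusted p = 1.08e-06). These 2 were also the ones called higher with miR-22 (1.25, adjusted p = 0.00129, and 0.91, adjusted p = 0.00126) by edgeR, DESeq2 and limma, and edgeR and limma called none of the other 6. Slc27a1, the insulin-responsive transporter of muscle and fat, was 1.03 higher in untreated HCC (adjusted p = 0.00341) and differed by −0.66 with miR-22 (adjusted p = 0.0681). That difference was called lower by DESeq2, without untreated replicate 2 (−0.84) and without miR-22-treated replicate 4 (−0.88). Slc27a3 (0.87) was the other one that rose, a call lost without healthy replicate 1 (0.67).

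Of the 8 tested carriers of acyl-CoA and other cytosolic lipids, 1 rose and 3 fell in untreated HCC, or 2 and 0 with library totals alone. With miR-22 edgeR, DESeq2 and limma called none of the 8, and 4 had an unadjusted p under 0.05. Without untreated replicate 4, or without miR-22-treated replicate 2 or 4, 1 of the 8 was called higher with miR-22. Acbd5, a peroxisomal acyl-CoA binding protein, was −0.93 (adjusted p = 5.11e-05) and then 0.57 with miR-22 (adjusted p = 0.00767), under the fold threshold, which it passed without replicate 4 of either tumor group (0.64 and 0.65). Stard10, a phospholipid transfer protein, was −0.81 (adjusted p = 7.43e-05) and Pctp, the phosphatidylcholine transfer protein, −0.87, whereas Acbd3, a Golgi protein, was 0.67 (adjusted p = 6.64e-05). With miR-22, Stard10 stood at 0.40 (adjusted p = 0.0247) and Acbd3 at −0.41 (adjusted p = 0.00839). Acbd3, Acbd5, Stard10 and Scp2, a sterol and fatty acyl carrier, had an adjusted p under 0.05 with miR-22 at changes below the fold threshold.

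Lpl, lipoprotein lipase, is low in adult liver and is made mainly by fat, muscle and macrophages. It had 243, 158 and 178 normalized counts in healthy livers, 1505, 1210.13 and 1301 in untreated HCC and 1056, 829 and 688 in treated HCC. The 3 groups did not overlap. Lpl was 6.95-fold higher in untreated HCC (log2 2.80, SE 0.182, adjusted p = 1.25e-07) and 4.45-fold higher in treated HCC (log2 2.15, SE 0.181, adjusted p = 2.75e-06) than in healthy livers. It was the only member called lower with miR-22 than without it, 1.56-fold (log2 −0.64, SE 0.163, adjusted p = 0.0137). That call was lost without untreated replicate 2 (−0.55, adjusted p = 0.0654), miR-22-treated replicate 3 (−0.62, adjusted p = 0.0541) or miR-22-treated replicate 4 (−0.50, under the fold threshold), and with glmTreat (adjusted p = 0.953). The gene lies at chr8:69284603-69360100 (+ strand).

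Proteins that regulate Lpl, and its sister lipases, were listed beside it. Of 11 tested, 7 fell in untreated HCC (6 by DESeq2 or limma), 8 had an unadjusted p under 0.05, and none rose by any of the 3 tools (median log2 fold change −1.18). With miR-22 the same 7 genes were higher than in untreated HCC, 8 had an unadjusted p under 0.05, none was lower by any tool, and 4 were not called (median 0.69). They included Angptl4, an inhibitor of lipoprotein lipase, Apoc3 and Apoc1, apolipoproteins that slow it, Apoa5, which aids it, Lipc (hepatic lipase) and Lipg (endothelial lipase). Apoa5 was −2.10 in untreated HCC (SE 0.213, adjusted p = 3.84e-06) and 1.48 with miR-22 (SE 0.209, adjusted p = 0.00065), and Lipc −1.87 (adjusted p = 2.13e-06) and 1.22 (adjusted p = 0.000676). Apoc3 was −1.37 (adjusted p = 1.1e-05) and 0.78 (adjusted p = 0.00401). The calls of Apoc1 and Lipg with miR-22 were less stable. That of Apoc1 (0.62) was lost without untreated replicate 3 (0.51), miR-22-treated replicate 3 (0.56) or miR-22-treated replicate 4 (0.52), and that of Lipg (0.84) without miR-22-treated replicate 3 (0.38), any 1 of the healthy livers (0.84), or untreated replicate 2 (0.73) or 3 (0.72). Angptl8, another regulator, stood at −0.73 with miR-22 (adjusted p = 0.122), and was called lower without healthy replicate 1 (adjusted p = 0.0209) or with only the tumor groups in the fit (adjusted p = 0.0341). Without untreated replicate 3, 4 of the 11 were called higher with miR-22. Several of these genes are made by hepatocytes, and the median of the 7 hepatocyte markers was −1.06 in untreated HCC and 0.68 with miR-22. The part of hepatocyte content in these changes was not tested.

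Angptl4 stood out within that group. Its mean was 1089 normalized counts in healthy livers, 673 in untreated HCC and 3087 in treated HCC, so treated livers lay above both other groups. It was 2.20 higher with miR-22 than without on the log2 scale (SE 0.273, adjusted p = 0.00031) and 1.503 higher than in healthy livers (adjusted p = 0.00092). Its fall in untreated HCC (−0.69, adjusted p = 0.0425) was not called in 10 of 20 alternatives, which kept its direction. Gpihbp1, the endothelial anchor of lipoprotein lipase, was not called in any comparison, with means of 245, 215 and 242. With libraries scaled by their totals alone, 3 of the 11 were higher and 1 lower with miR-22 (median 0.46), and 6 were lower in untreated HCC.

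Lpl and Fabp5 are also known from macrophages, and Cd36 and Fabp4 from macrophages and vessels. The 10 macrophage markers summed to 7062 to 8898 normalized counts in the healthy group, 6607 to 7768 in the untreated and 8251 to 8869 in the treated tumor group. Clec4f (means 3253, 2446 and 3260), Cd5l and Csf1r made up most of this sum. Of the 10 markers, 3 were higher in untreated HCC than in healthy livers (Trem2 and Gpnmb, both known from lipid-laden macrophages, and Cd68) and 1 was lower (Timd4). The call of Cd68 was lost without untreated replicate 2 (0.58) and that of Timd4 with library totals alone (−0.31). With miR-22, 0 were called by edgeR or limma, 1 by DESeq2, and 4 had an unadjusted p under 0.05. Without untreated replicate 4 or without miR-22-treated replicate 4, 3 of the 10 were called higher with miR-22 (Gpnmb, Vsig4 and Timd4). Trem2 averaged 7.58 normalized counts in healthy livers, 66.5 in untreated HCC and 54.8 in treated HCC, and Gpnmb 3.56, 36.5 and 96.1. The 10 endothelial markers summed to 7953 to 9550.4, 5502 to 6829.77 and 6889 to 8582, and 5 of them were lower in untreated HCC, or 2 lower and 2 higher with library totals alone. With miR-22, 1 of the 10 was higher, Clec4g of sinusoidal endothelium (0.85, adjusted p = 0.000759), and the median was 0.30. The count was 0 by glmTreat and 2 without untreated replicate 4 or miR-22-treated replicate 4. The part of these cells in the levels of Lpl, Fabp5, Cd36 and Fabp4 was not tested.

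Vldlr, the receptor for triglyceride-rich lipoproteins, had 789, 1269 and 1236 normalized counts in healthy livers, 1152, 1117 and 1160.28 in untreated HCC and 1028, 902 and 896 in treated HCC. Healthy replicate 1 stood below all 8 other livers, and treated HCC lay below untreated HCC without overlap. No difference was called: 0.06 in untreated HCC against healthy livers (95% interval −0.26 to 0.37, adjusted p = 0.759), −0.28 with miR-22 (−0.60 to 0.04, adjusted p = 0.189) and −0.22 in treated HCC against healthy livers (−0.54 to 0.10, adjusted p = 0.262). Without healthy replicate 1 the last was −0.43 at an adjusted p of 0.00544, still under the fold threshold. Its 3′ UTR holds the second seed match shown above. The gene lies at chr19:27193862-27231631 (+ strand).

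Of 12 tested lipoprotein and scavenger receptors and adaptors, 3 rose and 2 fell in untreated HCC. With miR-22, 0 were called by edgeR or limma, 1 by DESeq2, and 7 had an unadjusted p under 0.05. Lrp8, a close relative of Vldlr, rose by 3.38 (SE 0.429, adjusted p = 2.48e-05), or by 4.21 without healthy replicate 1, from a mean of 6.41 normalized counts in healthy livers. Scarb1, the HDL receptor, rose by 0.64 (adjusted p = 7.91e-05), and by 0.57, under the fold threshold, without healthy replicate 3. Olr1, a receptor for oxidized LDL, was also called higher but was near the floor, with means of 1.63 normalized counts in healthy livers, 14.2 in untreated HCC and 4.40 in treated HCC. Lrp1, a large endocytic receptor, was among those that fell (−0.86). With miR-22, Lrp5 (−0.45, adjusted p = 0.0102) and Lrp6 (0.38, adjusted p = 0.0208) stayed under the fold threshold. With library totals alone 4 rose and 0 fell in untreated HCC and 3 were lower with miR-22, and without healthy replicate 1 Lrp8 was called lower with miR-22 (−0.83, adjusted p = 0.0436), as it was by DESeq2 (adjusted p = 0.0400).

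Mogat1, a monoacylglycerol acyltransferase that makes diacylglycerol, had the largest differences between tumor and healthy livers among the members, from few healthy counts. It had 10.98, 15.9 and 9.59 normalized counts in healthy livers, 249.1, 134 and 196 in untreated HCC and 117, 169.502 and 245 in treated HCC. The healthy livers were near the bottom of the measurable range, and the tumor groups overlapped. Mogat1 was 15.8-fold higher in untreated HCC (log2 3.99, SE 0.370, adjusted p = 1.87e-06) and 14.6-fold higher in treated HCC (log2 3.87, SE 0.372, adjusted p = 8.37e-06) than in healthy livers. With miR-22 the difference was −0.12 (95% interval −0.71 to 0.47, adjusted p = 0.791). The gene lies at chr1:78487628-78514810 (+ strand) and overlaps BC035947 on the other strand, and the libraries do not keep strand. BC035947 had 0 counts in all 3 healthy livers, against 31 to 73 without and 20 to 53 with miR-22 in HCC, fewer than Mogat1 in every liver, and the split of shared reads between them was not tested.

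Of the 15 other enzymes of triglyceride synthesis, all tested, 4 rose, 5 fell and 6 were not called in untreated HCC. Those that fell were Dgat2, the last step of triglyceride synthesis (−1.44, SE 0.123, adjusted p = 9.91e-07), Lpin2 (−1.58, SE 0.207, adjusted p = 3.29e-05) and Lpin1 (−1.28, SE 0.373, adjusted p = 0.0107), and the acyltransferases Gpat3 (−0.82, adjusted p = 6.89e-05) and Gpat4 (−0.71). Those that rose were Gpam (0.75), Lpin3 (0.79), Agpat4 (1.02) and Mogat2, the sister gene of Mogat1, which averaged 3.86 normalized counts in healthy livers and 15.1 in untreated HCC. The call of Mogat2 was lost without healthy replicate 1 (log2 1.69) or untreated replicate 3 (1.68), and that of Agpat4 without any 1 of the 3 healthy livers (1.00 to 1.03) or without untreated replicate 3 (1.06) or 4 (0.89). With miR-22, Lpin1 (2.78, SE 0.389, adjusted p = 0.000603), Lpin2 (2.14, SE 0.211, adjusted p = 7.82e-05), Dgat2 (0.67, adjusted p = 0.00217) and Gpat3 (0.61) were higher and Lpin3 (−0.64) lower, and 10 were not called. The call of Gpat3 was lost without untreated replicate 3 (0.54) or miR-22-treated replicate 3 (0.50), that of Lpin3 without miR-22-treated replicate 2 (−0.58), and those of Gpat3 and Dgat2 with library totals alone (0.38 and 0.44). Lpin1, a phosphatidate phosphatase that also acts with PPARα, averaged 2671 normalized counts in healthy livers and 1101 in untreated HCC, and ran from 3318 to 14097 in treated HCC, where replicate 3 was far above the others. Without that liver the difference with miR-22 was 1.98 (adjusted p = 5.2e-05) and that from healthy livers 0.70 (adjusted p = 0.00606), against 1.51 with it. The median of this list turned from −0.28 to 0.15 in untreated HCC and from 0.12 to −0.11 with miR-22 when libraries were scaled by their totals alone, with 6 higher and 3 lower in the first comparison and 2 higher and 3 lower in the second. Without healthy replicate 1 or untreated replicate 3, 2 of the enzymes rose in untreated HCC instead of 4.

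Regulators known to act on these genes were listed as well. Of 10 PPAR genes and partners, 6 fell and 2 rose in untreated HCC. With library totals alone 2 fell, since Ppargc1a (−0.46), Nr1h3 (−0.40), Rxra (−0.49) and Rxrg (−0.31) lost their calls. Ppara, the nuclear receptor of fatty acid oxidation, averaged 3868 normalized counts in healthy livers, 1024 in untreated HCC and 2781 in treated HCC. It was −1.92 in untreated HCC (SE 0.160, adjusted p = 8.29e-07) and 1.44 with miR-22 (SE 0.158, adjusted p = 0.000164). Pparg, the receptor of fat storage, averaged 103, 297 and 301, with 1.53 in untreated HCC (SE 0.134, adjusted p = 1.23e-06) and 0.02 with miR-22 (adjusted p = 0.919). The coactivators Ppargc1a and Ppargc1b fell (−0.88 and −1.82) and were higher with miR-22 than without (1.20, adjusted p = 0.00328, and 1.60), while Ppard was at 0.63 and −0.70 in the same comparisons. The first call of Ppard was lost without healthy replicate 3 (0.46) or untreated replicate 4 (0.55). Nr1h3, the oxysterol receptor LXRα, was −0.82 (adjusted p = 8.52e-06) and 0.45 with miR-22 (adjusted p = 0.0042), under the fold threshold. Rxra (−0.91) and Rxrg (−0.73) also fell.

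Genes that PPARγ is known to drive in fatty liver were listed beside them. Of 9 tested, 6 rose in untreated HCC. With miR-22, 0 were called by edgeR, DESeq2 or limma, and 2 had an unadjusted p under 0.05. The median log2 fold changes were 1.48 and −0.01. With library totals alone 8 rose in untreated HCC and 1 was lower with miR-22, as 1 was without untreated replicate 4 or miR-22-treated replicate 4, while 1 was higher without miR-22-treated replicate 2. Cidec, which enlarges lipid droplets, was 3.39 higher (SE 0.377, adjusted p = 8.32e-06), Plin2, a droplet coat protein, 1.48 (adjusted p = 1.33e-05) and Ucp2, a mitochondrial carrier, 2.21 (adjusted p = 5.2e-08). Aqp7, a glycerol channel with a mean of 2.44 normalized counts in healthy livers and 33.9 in untreated HCC, and Plin4, another coat protein (1.29), rose too, the latter with a call that was lost without healthy replicate 1, healthy replicate 2 or untreated replicate 4. Cidea, a relative of Cidec, was at 0 counts in all 3 healthy livers and averaged 58.4 normalized counts in untreated HCC, at least 16.66-fold higher against a floor of 3 counts per library. With Cidea at this bound the median stayed at 1.48. With miR-22 Ucp2 was −0.54 (adjusted p = 0.00698), Pnpla2, the droplet lipase, 0.25 (adjusted p = 0.134) and Plin4 0.77 (adjusted p = 0.172), of which Ucp2 alone had an adjusted p under 0.05. Ucp2 passed the fold threshold without untreated replicate 4 (−0.65) or miR-22-treated replicate 4 (−0.62), and Plin4 was called without miR-22-treated replicate 2 (1.17).

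**Figure D4:**
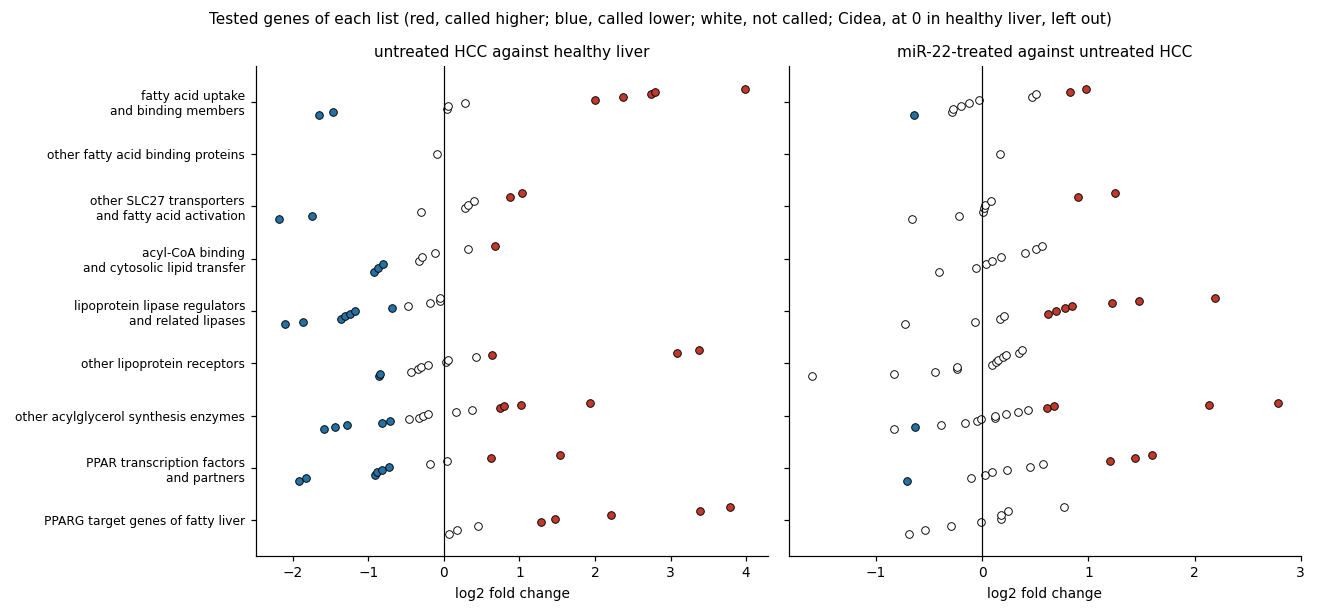
Log2 fold change of every tested gene of the members and of 8 further lists in untreated HCC against healthy livers (left) and miR-22-treated against untreated HCC (right); each point is a gene and filled points were called. The 7 called regulators of lipoprotein lipase are left of 0 in the left panel and right of 0 in the right one, and the PPARG target genes have called points in the left panel alone. Cidea, at 0 in healthy livers, is not drawn.

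Fabp1 and Slc27a2 are made by hepatocytes, and the hepatocyte markers moved as they did. The 7 markers found summed to 2561080 to 2732260 normalized counts in the healthy group, 1082240 to 1344000 in the untreated and 1607260 to 1960970 in the treated tumor group. Most of this sum was albumin (Alb), with means of 1968150, 890472 and 1303930. Alb alone among the 7 markers had no adjusted p under 0.05 with miR-22 against untreated HCC. All 7 were lower in untreated HCC (5 with library totals alone), and none of the 7 was at 0 in any group. With miR-22, 4 were higher than without it. The count was 2 without untreated replicate 2 or with library totals alone, and 7 without untreated replicate 4. By glmTreat the calls of Ahsg and Cps1 with miR-22 were lost and that of Serpina1c was kept. Of the 7 ductal markers, 5 were higher in untreated HCC (Krt7, Epcam, Sox9, Spp1 and Cftr) and 4 were lower with miR-22 (Epcam, Sox9, Spp1 and Cftr), or 2 by glmTreat. Their sum, 583 to 832, 64825 to 121493 and 30429 to 52703, was nearly all Spp1 (osteopontin), which averaged 519.7, 89639 and 39135. Sox9 averaged 59.2, 1689 and 568, whereas Krt19 (41.8, 76.7 and 74.9) and Muc1 (14.5, 22.6 and 22.2) were not called in either comparison. The 7 stellate cell markers summed to 5991 to 7304, 9059.74 to 10472 and 8464 to 9496. Of these, 3 rose in untreated HCC, among them Col1a1 (log2 5.06), and 2 fell, Lrat (−1.50) and Dcn (−0.61), which were the 2 called higher with miR-22 (1.10 and 0.71), while Col1a1 was called lower (−0.94). The fall of Dcn was lost without healthy replicate 2 (−0.58) or untreated replicate 3 (−0.46), and its call with miR-22 without untreated replicate 3 (0.56). Both calls of Dcn were also lost with library totals alone (−0.19 and 0.47). The call of Lrat with miR-22 was lost by DESeq2 (adjusted p = 0.0513) and without untreated replicate 3 or 4 or miR-22-treated replicate 2 or 3 (0.87 to 1.05). The 5 keratinocyte markers found, listed for Fabp5, summed to at most 51.3 normalized counts in any liver. The part of these shifts in the members' levels was not tested.

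On the scale of mean counts per kilobase, the order of the members changed with the tumors. In healthy livers it ran from Fabp1 (97272) and Slc27a2 (10954) through Fabp2 (1091), Fabp5 (899), Cd36 (162), Vldlr (133), Fabp7 (74.1), Fabp4 (58.6) and Lpl (46.9) to Mogat1 (9.81). The livers of neighbours in this order overlapped between Fabp2 and Fabp5, Cd36 and Vldlr, Fabp7 and Fabp4, and Fabp4 and Lpl. In untreated HCC Fabp1 (35118) was followed by Fabp5 (3591), Slc27a2 (3471), Fabp2 (1316), Cd36 (1075), Lpl (325), Fabp4 (305), Mogat1 (156), Vldlr (139) and Fabp7 (76.0). Here Fabp5 overlapped Slc27a2, Fabp2 overlapped Cd36, Lpl overlapped Fabp4 and Mogat1 overlapped Vldlr. In treated HCC the order was Fabp1 (62357), Slc27a2 (6822), Fabp5 (2941), Fabp2 (1876), Cd36 (1051), Fabp4 (266), Lpl (208), Mogat1 (143), Vldlr (114) and Fabp7 (105), with overlap between each pair of neighbours from Fabp4 on. So Slc27a2 and Fabp5 stood apart in healthy and treated livers and not in untreated HCC.

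For each member, the 2 genes with the nearest pattern over the 9 libraries were taken among all tested genes, by the root mean square difference of log2 normalized counts after centring each gene; a nearest gene always exists. Slc27a2 was closest to Sirt3, a mitochondrial deacetylase, at 0.0230 log2 units, with log2 fold changes of −1.68, 0.99 and −0.69 in the 3 comparisons, and next to Tprkb (0.0742). Fabp1 was closest to Apoc3 (0.101) and Spp2 (0.117). Vldlr had Pkd2l2 (0.102) and Trip11 (0.105). Fabp2 had Ube2l6 (0.135) and H2-T22 (0.164), Fabp7 had Gm16185 (0.127) and Lilrb4a (0.131), and Fabp4 had Itih5 (0.144) and Nabp1 (0.155). Among the members high in tumors, Fabp5 had Clec4n (0.155) and Rgs2 (0.189), Cd36 had Dkk2 (0.182) and Sema3g (0.229), Lpl had Npnt (0.191) and Rasgrp4 (0.203), and Mogat1 had Scube1 (0.222) and Myo15b (0.280). The distance is taken with a small count added before the logarithm, which shrinks the differences of genes with few counts: Dkk2 was 4.37 higher in untreated HCC than in healthy livers in the fit, against 2.73 for Cd36.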

How the data were processed

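RNA was sequenced from 9 livers, 3 per group. Per the labels and methods, libraries were non-directional, reads were checked with FastQC 0.11.7 and quantified with Salmon on GRCm39, imported per gene with tximport, and analysed with DESeq2 1.18; the Salmon version is not given in the sources used here. The deposited table holds estimated counts as whole numbers, not normalized, and the authors also deposited them divided by size factors, which were not used. Depth was 16664659 to 23908392 counts per library, and replicates differed by 6.59 to 31.3 in chi-square per degree of freedom.

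Counts were fitted in R 4.3.3 with edgeR 4.0.16: filterByExpr, TMM, all 9 libraries in 1 fit, quasi-likelihood F test, two-sided, Benjamini-Hochberg over 15717 genes. The call needed an adjusted p below 0.05 and more than 1.5-fold change. Normalized counts refer to 19401057 counts per library. Standard errors are the log2 fold change divided by the root of F, and 95% intervals use the fit's degrees of freedom. Coordinates and transcript lengths are those of GENCODE M39 on GRCm39. The fit was tested on simulated data. Alternatives included DESeq2 1.42.0 and limma 3.58.1 (limma-trend), other scalings and filters, and each library left out. Named were all members, up to 3 genes with the smallest p per list and comparison, and 2 nearest patterns per member. Other called list genes (such as Slc27a3, Pctp, Lrp1, Mogat2, Gpam, Agpat4, Gpat4, Lpin3, Aqp7, Rxra, Rxrg, Ppard, Ppargc1b and Lipg) were named after their values were seen, and a few list genes are not reported here. Members and lists were chosen with earlier results of these data known. Figures were drawn with Python 3.11.15 and matplotlib 3.10.9.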

Additional observations from a re-analysis of the deposited data

How the results depend on the processing

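Over 20 alternatives and 3 comparisons, 572 of 600 values of the members kept their direction and call, 14 lost the call, 6 gained it and 8 changed sign. The 5 members that rose and the 2 that fell in untreated HCC were called under each alternative. Sign changes concerned values near 0. In untreated HCC against healthy livers, with a library left out, Fabp7 ran from −0.16 (without healthy replicate 2) to 0.24 and was −0.02 without untreated replicate 2, and Vldlr ran from −0.15 (without healthy replicate 1) to 0.16. With miR-22 against untreated HCC, Cd36 ran from −0.17 to 0.0934 and Mogat1 from −0.44 to 0.10, above 0 without untreated replicate 2 (0.08 and 0.10) or miR-22-treated replicate 2.

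With miR-22 against untreated HCC, genes called numbered 2167, 3777 without the fold threshold, 468 with glmTreat, which tests against 1.5-fold itself, and 1433 to 2660 with each library left out. Members called higher numbered 2, but 0 with glmTreat and 2 to 3 with a library left out. Members called lower (Lpl) numbered 1, but 0 with glmTreat and 0 to 1 with a library left out. In miR-22-treated HCC against healthy livers, genes called numbered 3772, 5732 without the fold threshold and 2010 with glmTreat. Members called lower numbered 2, but 0 with library totals or glmTreat and 1 to 2 with a library left out. Scaling by library totals alone moved the median log2 fold change of all genes to 0.43, −0.23 and 0.21 in the 3 comparisons, and the share of higher among called genes from 55.7% to 80%, 60.4% to 27.8% and 70.6% to 85.2%.

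Same-numbered tumor livers did not deviate together (mean correlation −0.16, against 0.08 for different numbers). With so few same-numbered pairs, this does not settle whether the numbers pair the livers. With a replicate block, 1 member (Slc27a2) was called lower in treated HCC than in healthy livers instead of 2 (Fabp1 −0.66, adjusted p = 0.0697 in edgeR's quasi-likelihood test), Vldlr turned to −0.12 in untreated HCC, and 1745 genes were called with miR-22. Depth limits Mogat1 in healthy livers, with 9 to 13 counts, and Fabp7.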
